A study of Mus musculus with 10 samples.

Results

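Imprinted genes are described here across the cell populations of the mouse testis. The set was chosen by name and holds 10 genes, Peg3, Peg10, Igf2, H19, Meg3, Rian, Cdkn1c, Plagl1, Mest and Snrpn. Rows for 9 of the 10 were found among the 28125 genes of the RNA matrix and the 30670 genes of the scATAC-seq matrix, and Rian was not analysed here. RNA and open chromatin were measured together in single nuclei of wild-type C57BL/6J testes at 11, 17 and 25 days post-partum (dpp), of 8-week-old Cre/+ testes (Stra8-Cre, the control) and of 8-week-old Nfya-CKO testes (Nfya fl/fl; Stra8-Cre). Both adult genotypes carry a Cre cassette with ZsGreen1 at the end of Stra8, which is active in germ cells from spermatogonia on, so somatic cells of the Nfya-CKO testis keep Nfya. Each condition is 1 library per assay, and how many animals went into a library is not given in the sources used here.

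An imprinted gene is transcribed mainly from the allele of 1 parent, according to DNA methylation that the germline of that parent laid down. In the male germline the old marks are erased in primordial germ cells and the paternal marks are placed before birth, so the germ cells of these testes carry a paternal pattern on both alleles, while Sertoli, Leydig and other somatic cells keep the parental difference. Many imprinted genes act on fetal and placental growth and fall to low levels after birth. The values used here do not separate the alleles, so they give the total RNA of a gene and not its imprinting.

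The deposited matrices give 1 value per gene for 13 populations, with the cells of all libraries pooled. In the germline these are undifferentiated and differentiating spermatogonia (SpG), preleptotene (pL), early leptotene to zygotene (eL/L/Z), leptotene to early pachytene (L/Z/eP), middle and late pachytene (mP/lP) and diplotene (D) spermatocytes, round spermatids (RS) and elongating spermatids (ES). The others are Sertoli cells, other somatic cells, an unknown population and SpG of the library labelled Nfya-CKO. RNA is the mean over cells of UMIs (unique molecular identifiers, which count captured transcripts) per 10000 UMIs of the cell, and a value is called a level below. A population held 99 to 8107 cells with a median of 1525 to 18361 UMIs per cell, and the level that 3 UMIs would give was 0.131 in the unknown population and at most 0.0120 in the other 12. Counting intervals of 95% are given with some levels. They cover counting error only, and since no population has a second library, no difference below has a replicate check or a p-value.

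Several facts about the populations bear on the levels. Of 1292 undifferentiated SpG 1188 came from juvenile testes, while all 491 SpG of the library labelled Nfya-CKO were 8 weeks old, so age and genotype cannot be told apart in that comparison. Differentiating SpG, with 783 of 927 cells from Cre/+, and ES are largely adult, while pL, eL/L/Z and L/Z/eP are nearly all juvenile, so steps between these also cross ages. Spermatid markers summed to 8.33 in differentiating SpG and to 0.511 in undifferentiated SpG. Nfya RNA itself was 1.11 per 10000 in SpG of the library labelled Nfya-CKO and 0.456 in undifferentiated SpG, so its level does not check the label. Of the 5883 other somatic cells, 4633 came from the library labelled Nfya-CKO, and of the 3265 Sertoli cells 2866 came from 11 dpp. Markers of undifferentiated SpG summed to 16.1 per 10000 in their own population and to 8.83 in SpG of the library labelled Nfya-CKO. Leydig cell markers summed to 49.3 in the latter and to 0.208 in undifferentiated SpG, and the unknown population, with 99 cells, held the highest sum of endothelial markers, 16.1.

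NFYA is the subunit of the trimeric factor NF-Y that reads the CCAAT box in DNA. Bases upstream of a start of 4 members are therefore shown, with CCAAT, or ATTGG where the box lies on the other strand, in capitals. They come from RefSeq on GRCm38.p6 and leave out annotated exons. The Plagl1 stretch therefore ends at 13090690, short of the Plagl1 start at 13090832, and the bases between are not shown. In order, the stretches are chr7:6730463-6730577 on the minus strand, chr12:109540746-109540995 on the plus strand, chr7:142657497-142657746 on the minus strand and chr10:13090582-13090690 on the plus strand. The first is the whole interval between Peg3 and its neighbour Usp29, which is transcribed the other way, and the Igf2 stretch belongs to the last of its 4 annotated starts and so lies inside Igf2 as transcribed from the earlier ones.
Peg3: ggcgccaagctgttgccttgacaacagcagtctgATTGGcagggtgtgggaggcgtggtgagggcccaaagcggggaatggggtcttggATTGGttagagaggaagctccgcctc
Meg3: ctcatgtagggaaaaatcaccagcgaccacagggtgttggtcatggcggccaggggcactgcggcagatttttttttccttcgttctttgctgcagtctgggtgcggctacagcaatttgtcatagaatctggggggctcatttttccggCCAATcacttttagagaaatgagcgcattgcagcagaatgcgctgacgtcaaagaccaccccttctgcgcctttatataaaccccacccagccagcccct
Igf2: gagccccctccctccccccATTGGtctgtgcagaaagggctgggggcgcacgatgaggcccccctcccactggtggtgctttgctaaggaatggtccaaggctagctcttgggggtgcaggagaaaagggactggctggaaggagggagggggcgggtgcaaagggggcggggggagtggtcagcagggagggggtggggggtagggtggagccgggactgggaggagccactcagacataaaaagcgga
Plagl1: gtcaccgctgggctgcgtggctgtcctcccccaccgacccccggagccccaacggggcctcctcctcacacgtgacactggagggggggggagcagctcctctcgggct
The Peg3 stretch holds the box 2 times as ATTGG, Meg3 holds it 1 time as CCAAT, Igf2 1 time as ATTGG, and the Plagl1 stretch does not hold these letters. Across the promoter windows of 300 bases (250 before to 50 after a start) CCAAT was found on either strand in 37.4% of 32851 windows, and in 4 of the 15 windows that matched the 9 members analysed. By gene it was in 41.1% of all genes with a window and in 4 of the 6 members with one, namely Igf2, Meg3, Peg3 and Snrpn. A match of letters is a description of the sequence and does not show a bound site. H19, Cdkn1c and Peg10 were not matched.

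Across the germline, 8 of the 9 members were at their lowest at or after L/Z/eP, with Peg10 as the exception, and 4 were highest in undifferentiated SpG. For the 8 members whose level averaged 0.05 or more these counts were 7 and 3, against 62.3% and 19.2% of the 15250 genes at that level. Igf2, H19, Cdkn1c and Mest were at least 2-fold lower in mP/lP than in undifferentiated SpG, counted on the ratio of level + 0.1 where the mean of the 2 levels was at least 0.05. That is 4 of 9 members against 23.4% of the 13945 genes that passed the same filter, with a median ratio of 0.502 over the members and of 0.852 over all genes. Among 42 other imprinted genes that passed, 12 were at least 2-fold lower and their median was 0.739. When each population was scaled to its median gene, which raises mP/lP by 0.26 on the log2 scale, 3 members passed. The count depends on the settings, with 8 members at a pseudocount of 0.01, 0 at a pseudocount of 1 and 1 when levels had to average 0.2. The 23.4% of all genes belongs to the main setting, and no share of all genes is given for the others.

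**Figure D1:**
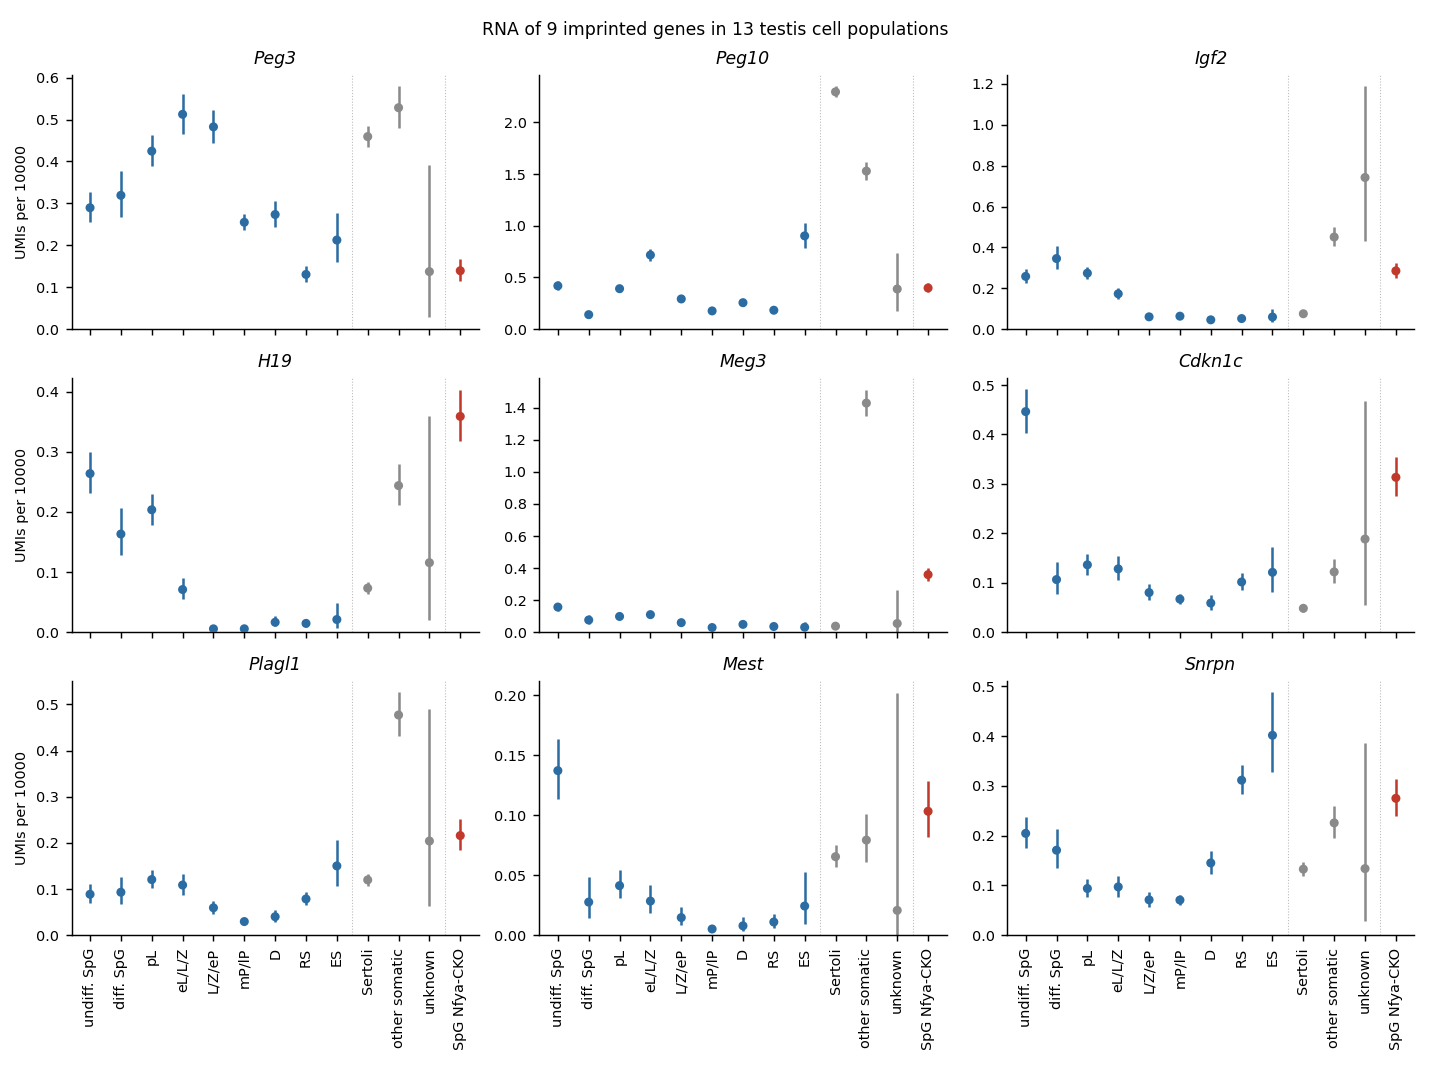
RNA level of each member in UMIs per 10000 (vertical axis from 0, a separate scale per gene) in the 13 populations (horizontal axis). Points are deposited population means and bars are 95% counting intervals, with the 9 germ cell populations in blue, somatic and unknown populations in grey and SpG of the library labelled Nfya-CKO in red. H19 and Mest run down to near 0 in pachytene, Peg3 has its germ cell peak at eL/L/Z, Snrpn is highest in ES, and Meg3 and Plagl1 stand far above all other populations in other somatic cells.

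Igf2 (chr7:142650768-142666816) encodes the insulin-like growth factor that drives fetal growth, and it is made from the paternal allele in the soma. Its RNA was 0.258 in undifferentiated SpG, 0.345 in differentiating SpG, 0.274 in pL and 0.173 in eL/L/Z, and then 0.0453 to 0.0631 in the 5 populations from L/Z/eP to ES. The early 4 populations therefore lay above the late 5, with no overlap of counting intervals between eL/L/Z (0.147 to 0.202) and L/Z/eP (0.0471 to 0.0753). In Sertoli cells the level was 0.0751, and in other somatic cells it was 0.451, which is 6.0 times as high. The highest level, 0.742, was in the unknown population that carries endothelial markers, but its interval of 0.432 to 1.19 rests on few UMIs and reaches the interval of other somatic cells.

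The row of Igf2 is not independent of its annotation. Gm49394 (chr7:142650769-142669942) is a gene on the same strand that overlaps 16048 bases of Igf2, and the levels of both rows differed by at most 0.0207 in any population, so reads of Igf2 may be counted in both. Igf2os lies on the opposite strand and was at most 0.0563, in SpG of the library labelled Nfya-CKO. Whether counting used strand is not given in the sources used here, so antisense reads cannot be told apart from those of Igf2.

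H19 (chr7:142575530-142578146), a long noncoding RNA, shares its enhancers with Igf2 and is read from the maternal allele in the soma. It had the widest germline range of the members. Its level was 0.264 in undifferentiated SpG, 0.163 in differentiating SpG, 0.204 in pL and 0.0709 in eL/L/Z, and it was 0.00559 in mP/lP, after 0.00552 in L/Z/eP. The fall from undifferentiated SpG to mP/lP was 47.1-fold, with a counting interval of 0.00325 to 0.00898 in mP/lP. In D, RS and ES it stayed between 0.0146 and 0.0210. H19 and Igf2 thus were both high before meiosis and both low from L/Z/eP on, although H19 went lower. Their Pearson correlation over the 13 populations on the log2 scale was 0.78, a description over points that share libraries and depth. In Sertoli cells they were alike relative to undifferentiated SpG, at 0.291 (Igf2) and 0.278 (H19) times that level. In other somatic cells Igf2 was 1.75 times and H19 0.924 times as high as in undifferentiated SpG.

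Cdkn1c (chr7:143458339-143461059), which encodes the cyclin-dependent kinase inhibitor p57, was highest in undifferentiated SpG at 0.446. Differentiating SpG had 0.106, which is 4.19 times lower, and the following germ cells had 0.0588 (D) to 0.136 (pL). No germ cell population after the undifferentiated SpG came near their interval of 0.403 to 0.492. Sertoli cells had 0.0482 and other somatic cells 0.122, so among the 13 populations undifferentiated SpG and SpG of the library labelled Nfya-CKO were on top. A fall on leaving the undifferentiated state was also seen in the related inhibitor Cdkn1b (p27), from 1.21 to 0.0786, while Cdkn1a (p21) was 0.113 and 0.139.

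Mest (chr6:30733506-30748466), which encodes a protein of the hydrolase fold family, followed a like course at lower levels. It was 0.137 in undifferentiated SpG, 0.0276 in differentiating SpG, 0.0413 in pL, 0.0285 in eL/L/Z and 0.00519 in mP/lP, a 26.4-fold range. The mP/lP level stands on few UMIs, with an interval of 0.00294 to 0.00848. Sertoli cells (0.0655) and other somatic cells (0.0793) lay between. Copg2 overlaps the 3′ end of Mest on the opposite strand and was highest in L/Z/eP at 1.91, so its course differed from that of Mest.

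Peg3 (chr7:6703892-6730462), a paternally expressed zinc finger gene, ran against this trend through early prophase. Its level rose from 0.290 in undifferentiated SpG through 0.319 in differentiating SpG and 0.425 in pL to 0.513 in eL/L/Z, and was 0.483 in L/Z/eP. It was then 0.255 in mP/lP, 0.273 in D, 0.130 in RS and 0.212 in ES. The intervals of eL/L/Z (0.467 to 0.562) and L/Z/eP (0.445 to 0.523) overlap each other and lie above those of the other germ cells, except that L/Z/eP reaches pL (0.389 to 0.463). Sertoli cells (0.459) and other somatic cells (0.528) were close to the early prophase peak. Sertoli cell markers summed to 4.64 in undifferentiated SpG, 4.92 in differentiating SpG, 6.92 in pL, 14.4 in eL/L/Z and 6.25 in L/Z/eP. Their part in the Peg3 levels was not tested. Zim1, a neighbouring imprinted zinc finger gene, had no such peak, with 0.0778 in pL, 0.0609 in eL/L/Z and 0.0127 in L/Z/eP, against 0.102 in undifferentiated SpG and 0.225 in other somatic cells.

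Plagl1 (chr10:13090832-13131694), which encodes a zinc finger factor that regulates other imprinted genes, varied 5.07-fold in the germline. It was 0.0887 to 0.121 from undifferentiated SpG to eL/L/Z, fell to 0.0296 in mP/lP, and was 0.0786 in RS and 0.150 in ES. Spermatids thus regained the level of spermatogonia, and the interval of ES (0.106 to 0.206) overlaps those of all 4 populations before L/Z/eP. Leydig and Sertoli cell markers were also higher in ES than in mP/lP. Relative to other somatic cells Plagl1 was at 31.5% in ES, the Leydig markers at 2.15% to 21.6% (Star) and the stromal markers at 0.477% to 5.75%, and in mP/lP these were 6.20%, 0.0980% to 1.55% and 1.16% to 2.20%. Their part in the Plagl1 level was not tested. Other somatic cells had 0.477, 5.38 times the level of undifferentiated SpG and 3.98 times that of Sertoli cells (0.120). Its paralogs Plag1 and Plagl2 went down in the same stages but did not recover, from 0.722 and 0.959 in pL to 0.116 and 0.213 in ES.

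Snrpn (chr7:59982495-60450177), which encodes a core protein of the spliceosome, had the opposite end of the course. Undifferentiated SpG had 0.205 and differentiating SpG 0.171, and the level was 0.0707 to 0.0971 from pL to mP/lP. It then was 0.145 in D, 0.311 in RS and 0.402 in ES. RS (0.283 to 0.342) and ES (0.327 to 0.488) lay above all germ cells before them, and ES was the highest of the 13 populations. Gm38393 overlaps 22570 bases of Snrpn on the same strand and had a like profile, with 0.264 in RS and 0.355 in ES, so reads of the locus may be split or counted in both. Snrpb, the ubiquitous paralog of Snrpn, did not exceed its spermatogonial level in spermatids, with 3.21 in undifferentiated SpG, 1.86 in D, 1.20 in RS and 2.56 in ES.

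Peg10 (chr6:4747306-4760517), derived from a retrotransposon and needed in the placenta, was highest in Sertoli cells at 2.30. Other somatic cells had 1.53. Among germ cells it was highest in ES (0.902) and eL/L/Z (0.717), lowest in differentiating SpG (0.140) and mP/lP (0.176), and 0.419 in undifferentiated SpG. The 2 germline highs coincide with Sertoli cell markers. The 5 Sertoli markers are Sox9, Wt1, Clu, Rhox8 and Cldn11. In ES, all but Clu were at 17.8% (Sox9) to 28.5% (Rhox8) of their level in Sertoli cells, and Peg10 was higher, at 39.3%. Clu was at 91.9% in ES, but it was also at 268% in other somatic cells. In eL/L/Z the markers were at 13.8% to 24.0% and Peg10 at 31.2%, and in mP/lP they were at 2.67% to 5.02% and Peg10 at 7.65%. In L/Z/eP the markers were at 6.25% (Cldn11) to 13.4% (Rhox8) and Peg10 at 12.7%. In undifferentiated SpG the markers were lower, at 4.92% (Cldn11) to 7.33% (Clu), and Peg10 was higher, at 18.2%. Their part in the Peg10 levels was not tested.

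Meg3 (chr12:109540996-109571729), a maternally expressed long noncoding RNA, was a gene of other somatic cells, at 1.43. This is 38.2 times the level of Sertoli cells (0.0374) and 9.13 times that of undifferentiated SpG (0.157). In the germline it was 0.0757 in differentiating SpG, 0.0979 in pL, 0.109 in eL/L/Z and 0.0288 to 0.0592 in the 5 later populations. The undifferentiated SpG were thus on top of the germline, with an interval of 0.132 to 0.185 whose lower end meets that of eL/L/Z (0.0888 to 0.133). Gm26906 lies on the opposite strand within Meg3 and was not analysed here.

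Imprinted neighbours on the same chromosome ran in parallel in some pairs and not in others. At the Dlk1 to Meg3 region of chromosome 12, Dlk1, a membrane ligand made from the paternal allele, fell from 0.605 in undifferentiated SpG to 0.0224 in mP/lP, as Meg3 did. Mirg, a microRNA host transcript 189 kb from Meg3 between starts and of the same maternal group, was 0.0652 in undifferentiated SpG, 0.581 in mP/lP and 0.609 in D. In mP/lP and D, Mirg was thus high and Meg3 low, but in Sertoli cells both were low, at 0.00452 and 0.0374. The RNA correlation of Mirg and Meg3 over the 13 populations was -0.12, against 0.78 for Dlk1 and Meg3. Next to Peg10, Sgce and Ppp1r9a were highest in Sertoli cells too, at 1.04 and 9.34, and correlated with it at 0.65 and 0.87. Kcnq1ot1, the antisense noncoding RNA of the Cdkn1c domain, was 1.74 in undifferentiated SpG and 7.19 in mP/lP, where Cdkn1c was at 0.0668, and the correlation was -0.61.

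**Figure D2:**
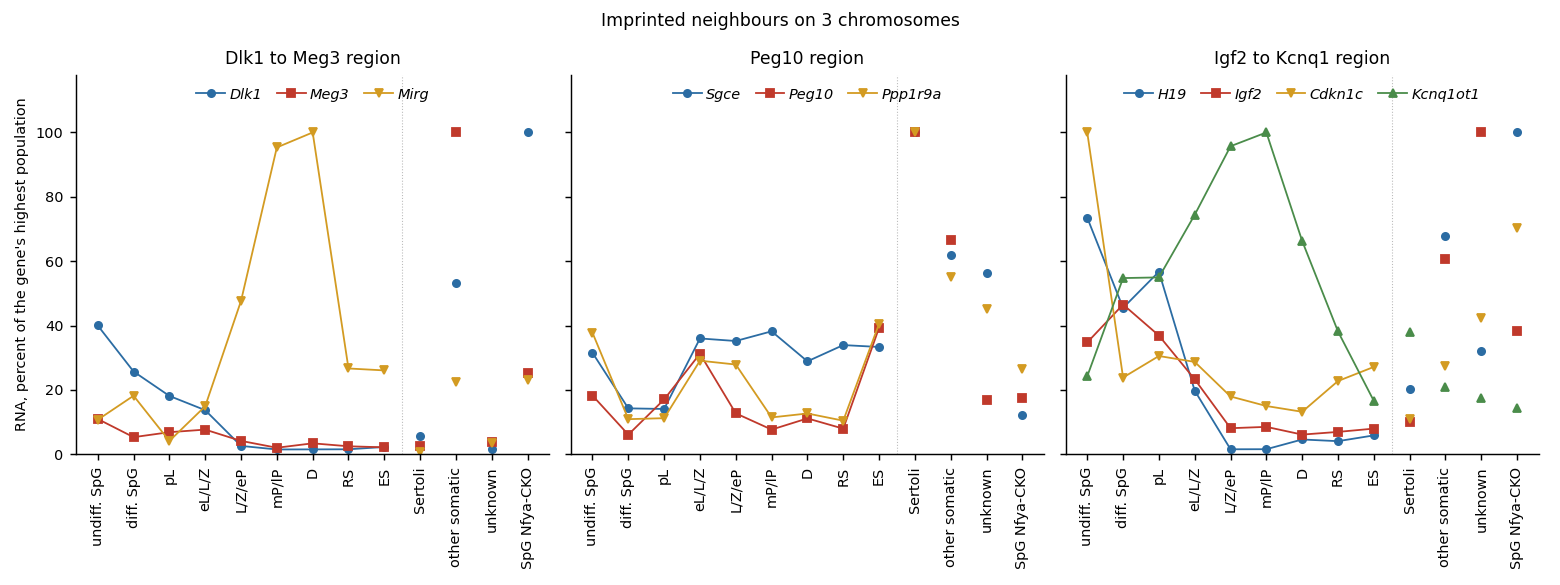
RNA of imprinted neighbours on chromosomes 12, 6 and 7 as percent of each gene's highest population (vertical axis) in the 13 populations (horizontal axis, germ cells joined by lines, the other populations as single points). Mirg and Kcnq1ot1 are highest in late prophase, where Dlk1, Meg3, H19, Igf2 and Cdkn1c are low, and the 3 genes of the Peg10 region share their highest level in Sertoli cells.

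Of the 8 members whose level averaged 0.05 or more over the populations, 6 had their highest level outside the 9 germ cell populations, namely Peg3, Peg10, Igf2, H19, Meg3 and Plagl1. Among all 15250 genes at that level the share was 39.3%. The top was in other somatic cells for Peg3, Meg3 and Plagl1, in Sertoli cells for Peg10, in the unknown population for Igf2 and in SpG of the library labelled Nfya-CKO for H19. Peg3 exceeded its highest germ cell population by only 1.03 times, and 4 of the 6 did so by at least 1.5 times. Leaving out the SpG of the library labelled Nfya-CKO, which was chosen after seeing the data, gave 5 members, against 29.8% of all genes. Among the 44 other imprinted genes at that level, 26 were highest outside the 9 germ cell populations, and 22 with those SpG left out.

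Genes with the most similar profile were named for each member by Pearson correlation of log2(level + 0.1) over the 13 populations. Peg10 was closest to Axl (0.98), Cldn11 (0.98) and Dpysl4 (0.97), and Cldn11 is a tight junction gene of Sertoli cells. Meg3 was closest to Dcn (0.90), Lrg1 (0.90) and Spon1 (0.89), of which Dcn is an imprinted proteoglycan gene of stroma. H19 was closest to Selenoh (0.97), Insig1 (0.95) and Cul7 (0.95). For Igf2 the list was Gm49394, its overlapping gene, with the same order of populations (rank correlation 1), then Hspg2 (0.95) and Dlc1 (0.94). Cdkn1c had Susd4 (0.93), Chaf1b (0.91) and Ptpn14 (0.90), and Plagl1 had Slc48a1 (0.94), Tspan4 (0.94) and Gpt2 (0.94). Snrpn had Zfp219 (0.88), Dlgap1 (0.87) and Grm3 (0.87), and Peg3 had Atf6 (0.84), Jagn1 (0.84) and Kdm4c (0.84), the lowest values of all. These correlations carry no test, and with 13 points a few populations can set them. For Meg3 the rank correlation with Dcn was 0.29, and both genes are highest in other somatic cells.

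SpG of the library labelled Nfya-CKO were compared with undifferentiated SpG to ask which members differ when Nfya is targeted. No member was 2-fold higher or lower on the ratio of level + 0.1, against 4.76% of 13954 genes that were at least 2-fold higher and 3.4% that were at least 2-fold lower. The members' median ratio was 1.08 and that of all genes 1.03. SpG of the library labelled Nfya-CKO also had a median of 18361 UMIs per cell against 9290 and a mitochondrial share of 0.392% against 0.953%, whose part in the ratios was not tested. Counting intervals of both populations lay apart for 6 of the 9 members, as they did for 61.9% of all genes, so this share is near the background.

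Peg3 had the lowest ratio. It was 0.139 (0.114 to 0.168) in SpG of the library labelled Nfya-CKO and 0.290 (0.255 to 0.327) in undifferentiated SpG, a ratio of 0.614 with the pseudocount and 0.481 without. Differentiating SpG and pL, at 0.319 and 0.425, were higher still. The level was thus below both pooled spermatogonial populations and every prophase population, and near that of RS (0.130). Usp29, which starts 147 bases away on the opposite strand in the GENCODE annotation (whose Peg3 start differs from that of RefSeq), was 0.215 and 0.183 in the same 2 populations.

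Meg3 and Plagl1 had the highest ratios. Meg3 was 0.359 against 0.157, a ratio of 1.79 with the pseudocount and 2.29 without, and Plagl1 was 0.216 against 0.0887, with 1.67 and 2.43. Both genes are highest in other somatic cells, and Leydig cell markers moved with them. The markers Cyp17a1, Cyp11a1, Hsd3b1, Star and Insl3 were all detected in SpG of the library labelled Nfya-CKO, at 16.3% to 24.6% of their level in other somatic cells, against at most 1.74% in undifferentiated SpG. Meg3 was at 25.1% and Plagl1 at 45.2%. The 4 stromal markers ranged from 1.61% (Col3a1) to 19.5% (Col1a1), and Col1a1 was at 39.2% in undifferentiated SpG. The 3 peritubular markers ranged from 3.08% (Acta2) to 23.6% (Cnn1), so Col1a1 and Cnn1 lay within the range of the Leydig markers. The 4 macrophage markers were at 47.2% (C1qa) to 184% (Adgre1), against 0% to 77.5% in undifferentiated SpG. Their levels in other somatic cells were low, at 0.0245 (Adgre1) to 0.184 (Csf1r), and Adgre1 was at 571% in RS. The 3 endothelial markers were at 19.8% to 230%, against 34.2% to 141% in undifferentiated SpG. The part of these somatic signals in the levels of Meg3 and Plagl1 was not tested.

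**Figure D3:**
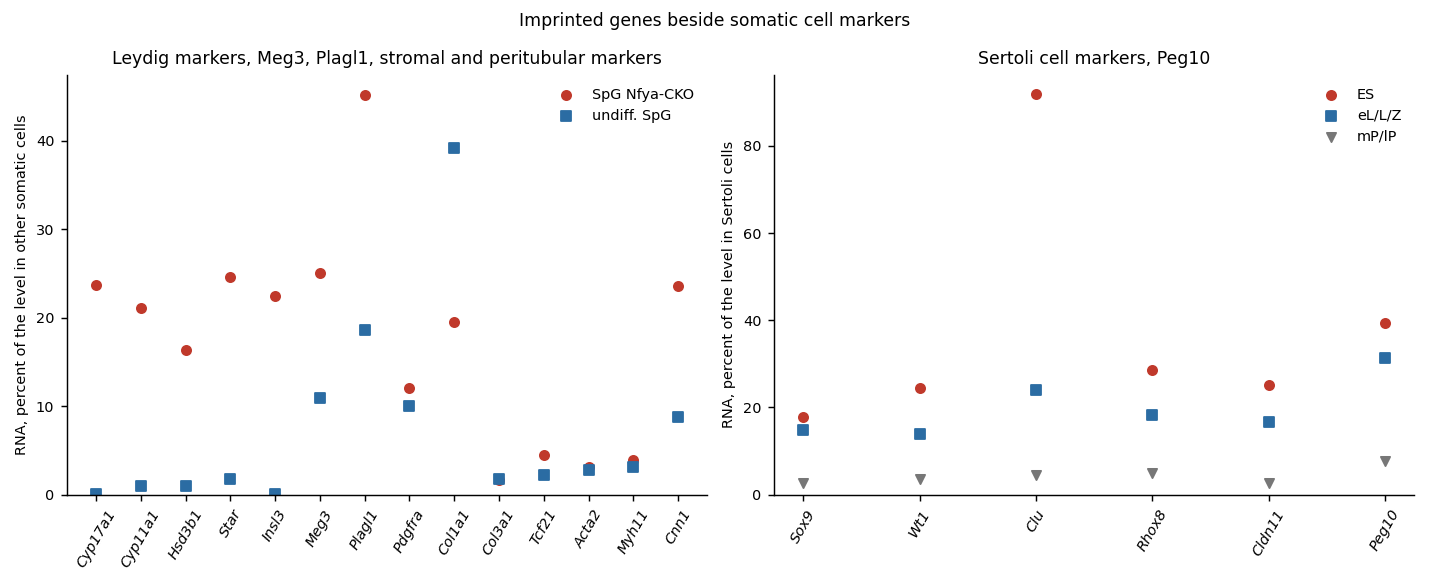
Left, RNA of 5 Leydig cell, 4 stromal and 3 peritubular markers, Meg3 and Plagl1 in SpG of the library labelled Nfya-CKO (red circles) and in undifferentiated SpG (blue squares), as percent of the level in other somatic cells. Right, RNA of 5 Sertoli cell markers and Peg10 in ES (red circles), eL/L/Z (blue squares) and mP/lP (grey triangles), as percent of the level in Sertoli cells. Meg3, at 25.1%, sits beside the Leydig markers at 16.3% to 24.6%, as do Col1a1 (19.5%) and Cnn1 (23.6%). Peg10 is higher in eL/L/Z and ES than in mP/lP, as the Sertoli markers are.

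The other members moved less. H19 was 0.359 (0.318 to 0.403) against 0.264 (0.231 to 0.300), and it was 1.47 times as high as in other somatic cells. Cdkn1c was 0.313 (0.275 to 0.355) against 0.446 (0.403 to 0.492), lower than in undifferentiated SpG but 2.95 times the level of differentiating SpG. Snrpn was 0.275 against 0.205. For Igf2 (0.285 against 0.258), Peg10 (0.398 against 0.419) and Mest (0.103 against 0.137) the counting intervals overlapped. Cdkn1c, Mest and Peg10 lay below undifferentiated SpG but above differentiating SpG, and Igf2 lay above the first but below the second (0.345), so the direction of these 4 turned with the control population.

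Among 44 other imprinted genes that passed the same filter, 6 were at least 2-fold higher and 0 at least 2-fold lower. The 5 with the largest ratios were Cd81, a tetraspanin, at 3.34 against 0.877, Phactr2 at 1.10 against 0.259, Phlda2, a placental growth regulator, at 0.507 against 0.0970, Airn, the antisense RNA of the Igf2r domain, at 1.65 against 0.516 (and 1.29 in differentiating SpG), and Dlk1 at 1.51 against 0.605. Dcn was the sixth. Cd81 and Dcn were highest in other somatic cells and Phactr2 in Sertoli cells, while Dlk1 and Phlda2 were higher in SpG of the library labelled Nfya-CKO than in any other population. Dlk1, whose 1.51 is 188% of its level in other somatic cells, thus exceeded that level as H19 did.

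Partners of the members were read in the same 2 populations. Of the receptors of IGF2 and the proteins that bind its mRNA, Igf1r was 6.94 against 8.75, Insr 0.242 against 0.312, Igf2r 0.809 against 0.831, and Igf2bp1 3.66 against 4.95, with none past 2-fold. Igf1r and Igf2bp1 were lower late in the germline, as Igf2 was, at 8.75 and 4.95 in undifferentiated SpG and 0.541 and 0.272 in mP/lP. Igf2bp3, which also binds Igf2 mRNA, was not, with 1.20 in undifferentiated SpG, 1.33 in mP/lP and 1.84 in ES, and Insr was 0.0903 in mP/lP and 0.299 in RS. Cdkn1b was 0.422 against 1.21, a ratio of 0.399 with the pseudocount, the only partner past 2-fold on that scale. Without it the ratio was 0.349, and Cdkn1a (2.31) and Trim28 (2.02) were past 2-fold too. Differentiating SpG had 0.0786 of Cdkn1b and 3.06 of Trim28, so the direction of these genes turned with the control population. Cdkn1a was 0.139 there. Factors that guard imprints in the embryo, Zfp445 and Trim28, were 0.740 against 0.847 and 2.93 against 1.45, and Zfp57 was at most 0.196, in RS. Ctcf, which binds the control region between Igf2 and H19, was 1.80 against 1.41, and its testis paralog Ctcfl was highest in pL at 0.314.

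Open chromatin was read from the scATAC-seq matrix, for which no source used here says what region stands for a gene. The study's methods define promoter accessibility as mean coverage around the start site, without saying whether this matrix uses it. Values are given per 1000000 of a population's total. Mitochondrial genes took 31.2% to 64.5% of that total, with the highest shares in L/Z/eP and other somatic cells, so profiles over populations are described per 1000000 of nuclear genes. Populations held 54 (unknown) and 124 (ES) to 5805 cells, and the counts behind a gene's value are unknown.

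Across the germ cells, open chromatin varied less than RNA at 7 of the 9 members, by 1.67-fold (Cdkn1c) to 6.38-fold (Mest), and more than RNA at Plagl1 (5.89-fold) and Snrpn (9.50-fold). Of the 8 members whose RNA averaged 0.05 or more it varied less at 6, against 93.5% of 14904 genes at that level with no value of 0 in germ cells. Meg3 was highest in undifferentiated SpG, at 43.6 per 1000000 nuclear, and 23.4 to 33.7 in the other germ cells. The median gene was also highest there, at 20.4 against 12.2 to 15.8 in the other germ cells, and as a multiple of it Meg3 was 2.14 in undifferentiated SpG and 1.49 to 2.37 in the others. In other somatic cells, where its RNA was highest, it was 21.7. Peg10 was 101 in undifferentiated SpG, 52.5 in mP/lP and 83.3 in Sertoli cells. As a multiple of the median gene these were 4.95, 4.26 and 6.43, so Sertoli cells then lay above undifferentiated SpG. H19, whose RNA was nearly gone in mP/lP, had 26.2 there, against 20.4 in undifferentiated SpG. This order turned with mitochondrial genes in the total, at 10.4 and 12.1. Igf2 was 5.57 in Sertoli cells, 7.98 in other somatic cells and 36.4 in the unknown population, where its RNA was also highest. Cdkn1c was 88.0 in undifferentiated SpG and 73.7 in differentiating SpG, a smaller step than the 4.19-fold one in its RNA, and as a multiple of the median gene it was higher in the latter (4.31 and 5.59). It was 99.0 in mP/lP, but with mitochondrial genes in the total mP/lP was below undifferentiated SpG, at 39.3 against 52.3.

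Plagl1, Mest and Snrpn had their highest scATAC-seq value in ES. Plagl1 was 5.93 in L/Z/eP and 34.9 in ES, Mest 5.36 in RS and 16.2 in ES, and Snrpn 4.04 in RS and 6.47 in ES. For Plagl1 and Snrpn the RNA was highest among germ cells in ES as well. The ES values rest on 124 cells. As a multiple of the median gene, Snrpn was only 0.0439 (Sertoli) to 0.422 (ES), and Mest was 0.125 in undifferentiated SpG and 1.06 in ES. Snurf and Gm38393, which overlap Snrpn on the same strand, went the other way. With mitochondrial genes in the total they were 40.1 and 40.0 in undifferentiated SpG and 11.1 each in ES, where Snrpn was 0.603 and 3.64. Pearson correlations of RNA and scATAC-seq over the 13 populations, on values that include mitochondrial genes in the total, were 0.74 for Snrpn, 0.44 for Cdkn1c and between -0.39 (Mest) and 0.27 (Igf2) for the other 7.

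Open chromatin of 2 members was nearly that of a neighbour that starts beside them, and their RNA was less alike. In GENCODE, Peg3 and Usp29 start 147 bases apart on opposite strands, and their scATAC-seq values correlated at 0.99 over the 13 populations while their RNA correlated at 0.10. For Peg10 and Sgce, 99 bases apart on opposite strands, these were 0.99 and 0.65. Regions that overlap would count the same fragments for both genes. The regions counted are not known, so the scATAC-seq values of such a pair may not be separate measurements.

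**Figure D4:**
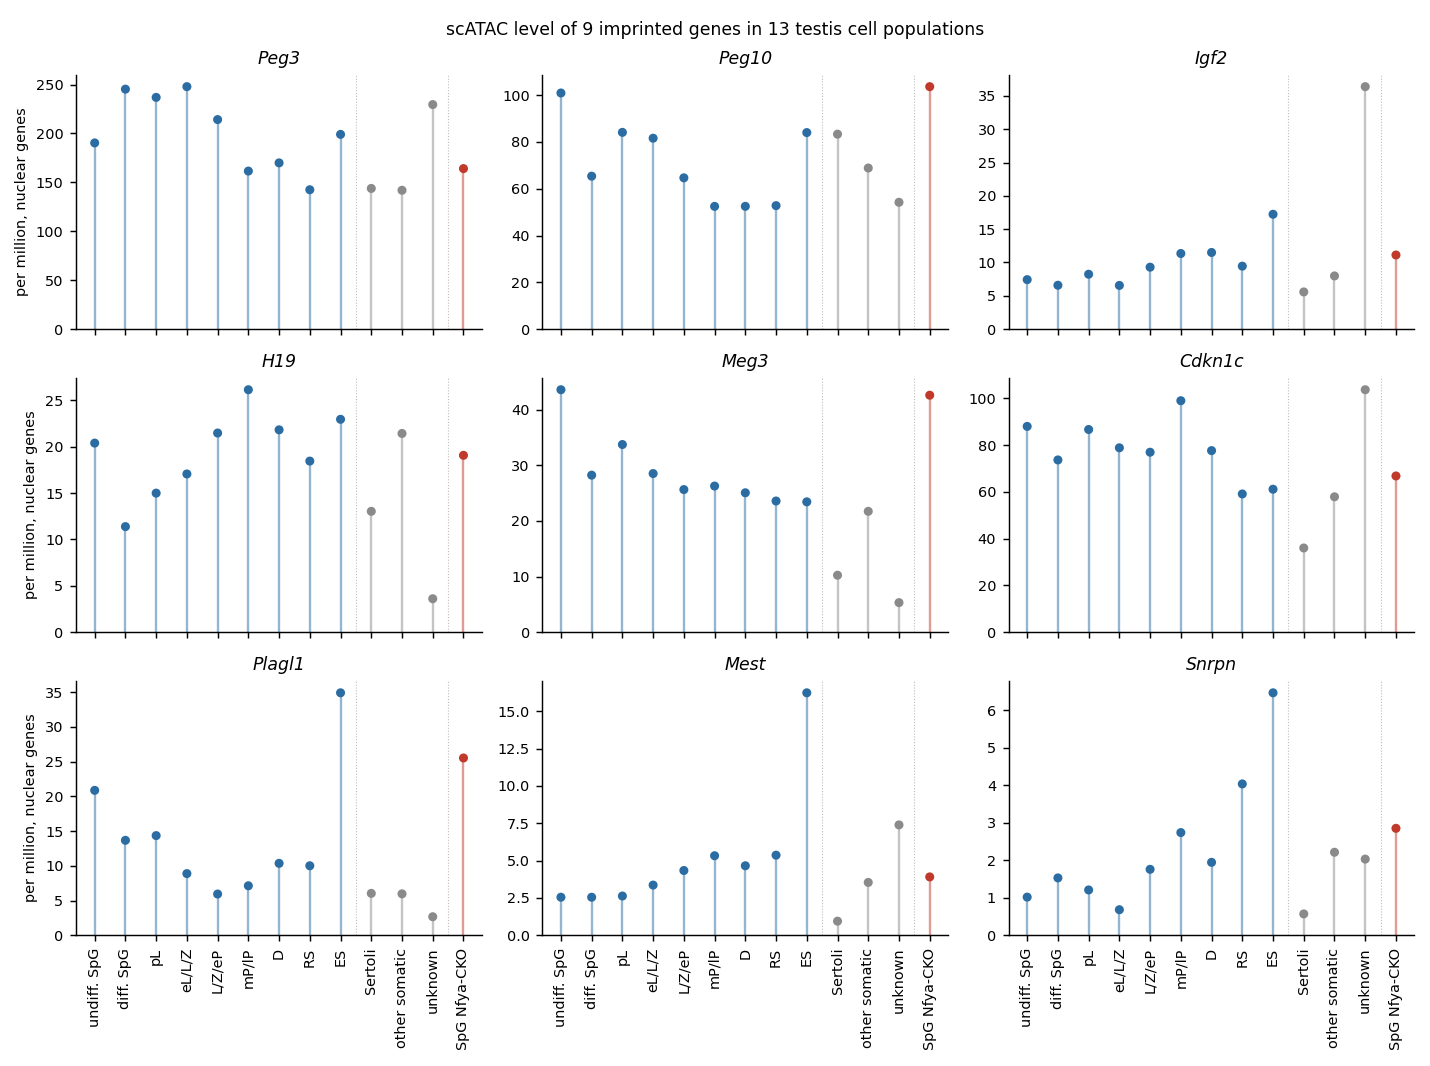
scATAC-seq level of each member per 1000000 of nuclear genes (vertical axis from 0, a separate scale per gene) in the 13 populations (horizontal axis), with germ cells in blue, somatic and unknown populations in grey and SpG of the library labelled Nfya-CKO in red. Lines drop from each value to 0 and no error is drawn because counts per gene are unknown. Plagl1, Mest and Snrpn stand out in ES, Igf2 in the unknown population, and Meg3 is high at the left and right end, where the median gene is highest as well (20.4 and 25.3).

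In SpG of the library labelled Nfya-CKO, 2 members were at least 25% above undifferentiated SpG in scATAC-seq, Igf2 (6.0 against 4.4) and Snrpn (1.54 against 0.603), on the ratio of value + 1 per 1000000. Another 2 were at least 20% below, Peg3 (88.5 against 113) and Cdkn1c (36.1 against 52.3). The shares over all 30670 genes were 21.6% and 21.1%, so 2 of 9 in each direction is near the background. Genes that overlap Igf2 and Snrpn went the other way on the same ratio. Gm49394 was 0.881 and Igf2os 0.860 at Igf2, and Snurf was 0.926 and Gm38393 0.929 at Snrpn. In undifferentiated SpG, Igf2 was 0.364 and Snrpn 0.0498 times the median nuclear gene, so both values were low. The median ratio was 0.935 over the members and 0.981 over all genes. Peg3 and Cdkn1c were lower in both RNA and scATAC-seq, whereas Meg3, whose RNA was higher, had 23.0 against 25.9. Mean enrichment of fragments at transcription start sites was 7.99 in SpG of the library labelled Nfya-CKO and 12.7 in undifferentiated SpG, and its part in these ratios was not tested. Without mitochondrial genes, which raises the ratios by 0.14 on the log2 scale, Peg3 was no longer past 20% (164 against 190 per 1000000 nuclear) and Mest came to lie past 25%, so 3 members were higher and 1 lower. The shares of 21.6% and 21.1% were counted with mitochondrial genes in the total, and none is given without them.

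**Figure D5:**
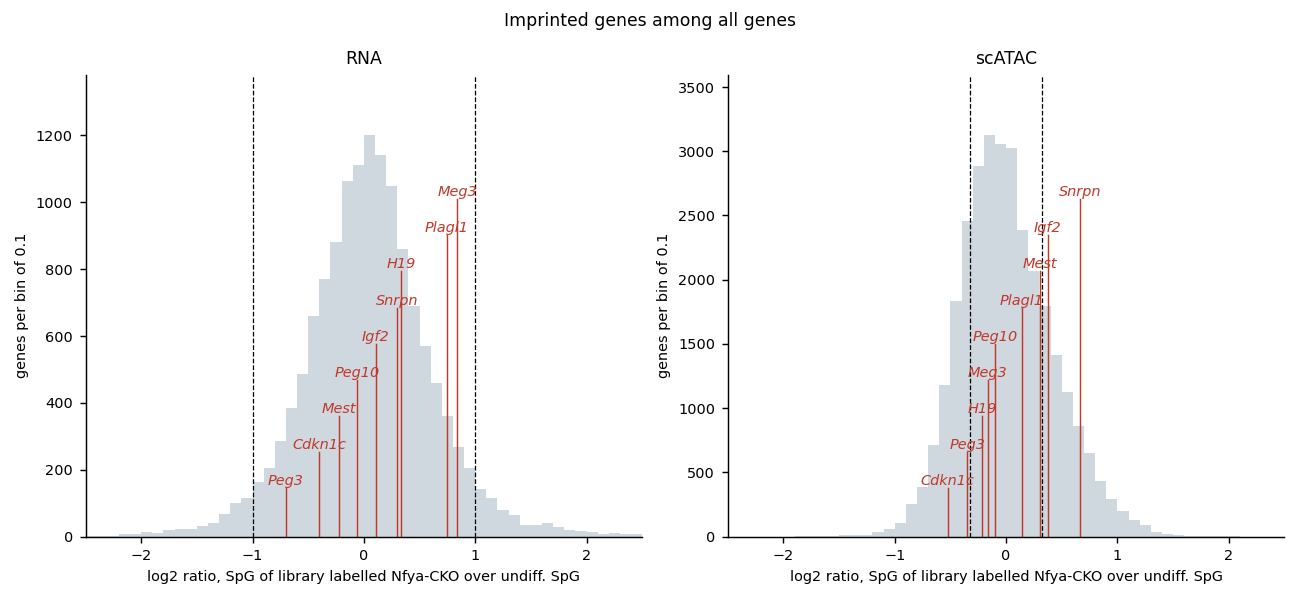
log2 ratio of SpG of the library labelled Nfya-CKO over undifferentiated SpG (horizontal axis) for RNA (left, level + 0.1, genes averaging 0.05 or more) and scATAC-seq (right, value + 1 per 1000000). Grey bars count all genes per bin of 0.1, red lines mark the members at heights chosen for legibility, and dashed lines mark 2-fold (left) and 25% above or 20% below (right). All 9 members lie between the dashed lines for RNA, and for scATAC-seq Igf2 and Snrpn lie above and Peg3 and Cdkn1c below.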

How the data were processed

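Members and gene lists were chosen with earlier results of these data known. RNA and open chromatin were measured in nuclei of 10 libraries, 1 per condition and assay. The authors aligned scRNA-seq reads with STAR 2.7.10b to mm10, collapsed UMIs, filtered cells with Seurat 5.2.1 and removed doublets, and aligned scATAC-seq fragments with BWA 0.7.12 and filtered cells with ArchR 1.0.3 (submitters' processing notes and methods).

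The authors deposited per-cell counts of UMIs and fragments without normalization, for each cell the percent of its UMIs that are mitochondrial, and TSS enrichment, a ratio of coverage at start sites to that in flanks. Each deposited gene matrix holds, per population, the natural log of 1 plus a mean that sums to 10000. The mitochondrial percent of the RNA matrix equalled the mean over cells in all 13 populations, so values were read as means of per-cell UMIs per 10000, and a level was turned into the number of UMIs of equal precision for Poisson intervals (95%).

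RNA ratios used level + 0.1 with a mean of at least 0.05, and scATAC-seq ratios value + 1 per 1000000. Named genes were all members, the 3 most similar genes (mean of at least 0.2) of each member with a mean of at least 0.05, other imprinted genes past 2-fold (at most 5 per direction) and a list of partners. Marker lists were those of testis cell types. Of 62 other imprinted genes, 60 were in the RNA matrix. 49 cells had no library name. Counting rules were tested on simulated data. Versions were scipy 1.17.1, pandas 2.3.3, numpy 2.4.6 and Python 3.11.15. Coordinates are RefSeq, and overlaps GENCODE, on GRCm38. Pooled columns allow no fit without a library. Alternatives were other pseudocounts, filters, thresholds, scalings and control populations.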

Additional observations from a re-analysis of the deposited data

How the results depend on the processing

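No paired analysis was possible because each condition is 1 library and the matrices pool cells over libraries, and for the same reason no replicate could be left out. The number of members at least 2-fold higher in SpG of the library labelled Nfya-CKO, 0, became 2 with a pseudocount of 0.01 or a 1.5-fold limit, 3 against differentiating SpG and 1 against pL. The number at least 2-fold lower, 0, became 1 with a pseudocount of 0.01, a 1.5-fold limit or pL as control. The 4 members lower in mP/lP became 8 with a pseudocount of 0.01, 0 with a pseudocount of 1, 1 when levels had to average 0.2 and 7 at 1.5-fold. For scATAC-seq the 2 higher members became 0 with a pseudocount of 5 or an average of at least 10, 1 at 1.5-fold and 5 against differentiating SpG, and the 2 lower ones became 0 at 1.5-fold. Without mitochondrial genes there were 3 higher members and 1 lower. No share of all genes is given for these alternative settings, so their counts have no background. Of the log2 ratios of single members, the sign changed for 4 members in RNA and 3 in scATAC-seq against differentiating SpG, for 3 in RNA against pL and for 1 in scATAC-seq without mitochondrial genes, and under no other setting. Peg3 stayed lower under every RNA alternative, from -1.13 to -0.18 on the log2 scale, and Meg3 (0.23 to 1.38) and Plagl1 (0.16 to 1.19) stayed higher. Of the 3 most similar genes of each member, between 0 and 2 remained by rank correlation or without the unknown population.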
